A study of Mus musculus with 28 samples.

Results

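MTA1, a subunit of the nucleosome remodelling and deacetylase complex NuRD, was mapped by chromatin immunoprecipitation with sequencing (ChIP-seq) in control and in H3.3-depleted mouse fibroblasts. Every peak of the 2 deposited MTA1 lists was taken, 1703 from control and 904 from knockdown cells, which makes 2607 of the 84308 peaks in the 7 peak lists of single libraries that were used. The peaks were compared by overlap of at least 1 bp and by the authors' score per peak, in classes of 50 to 100, 100 to 200 and 200 or more. The cells were NIH/3T3 Tet-On 3G, an immortalised embryonic fibroblast line with a doxycycline-dependent transactivator. Control cells carried the construct pair GFP-Luciferase and OFP-Luciferase and the genotype label wild type. Knockdown cells carried OFP-H3.3A and GFP-H3.3B and the label H3.3 Knockdown. Both were fixed with formaldehyde and precipitated with antibody sc-9446, and each condition has 1 library, so differences between the lists have no replicate check. The labels do not say whether the ChIP cells were clones or pools, and the depth of both libraries is unknown. Histone marks (H3K4me3, H3K9ac and H3K27ac) and signal levels over 82893 listed regions came from cells of the same line without these constructs, called unmodified here. Tagged H3.3, also in the level table, was mapped in doxycycline-induced cells under aphidicolin arrest. RNA came from 2 control and 3 knockdown clones, whose treatment text names cells with tagged H3.3 and doxycycline at 2 mg/ml.

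NuRD joins an ATP-driven nucleosome remodeller (CHD3 or CHD4) to the histone deacetylases HDAC1 and HDAC2. MTA proteins are the scaffold that holds and activates the deacetylases and also recruits the histone-binding subunits RBBP4 and RBBP7. H3.3 is the H3 variant that is built into chromatin outside of replication, at promoters, enhancers and transcribed genes. H3K4me3 marks promoters, above all those rich in CpG dinucleotides, while H3K27ac and H3K9ac mark active promoters, and H3K27ac also active enhancers.

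MTA1 peaks at gene starts lay at CpG-rich promoters in both conditions. Of 23682 genes with a single entry in the FPKM tables, 13975 matched 1 RefSeq promoter (GRCm38.p6, 250 bases before to 50 bases after the start) on the same chromosome. A start within 1000 bp of an MTA1 peak was found for 163 of these genes in the control list only, for 65 in both lists and for 164 in the knockdown list only. Their promoters held a median of 29.0, 28.0 and 26.0 CpG dinucleotides per 300 bases. The median was 13.0 over all matched promoters and 22.0 over the 6735 with an H3K4me3 peak and no MTA1 peak. The GC box GGGCGG, on either strand, was in 75.5%, 86.2% and 78.7% of the 3 sets, against 67.6% with H3K4me3 alone and 46.6% of all promoters. Below are the 250 bases before the start, 5′ to 3′ on the gene's strand with each CpG in capitals, for the highest peaks of the sets among matched genes. The first 2, with peaks in both lists, belong to Cnnm3 (chr1:36511617-36511866, plus strand), a metal transport mediator, and Atoh8 (chr6:72235578-72235827, minus strand), a basic helix-loop-helix transcription factor.
Cnnm3: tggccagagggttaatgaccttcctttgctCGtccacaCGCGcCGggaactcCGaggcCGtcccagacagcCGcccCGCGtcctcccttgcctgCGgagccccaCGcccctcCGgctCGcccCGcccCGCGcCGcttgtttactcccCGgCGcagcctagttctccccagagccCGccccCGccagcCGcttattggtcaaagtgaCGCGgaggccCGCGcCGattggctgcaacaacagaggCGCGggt
Atoh8: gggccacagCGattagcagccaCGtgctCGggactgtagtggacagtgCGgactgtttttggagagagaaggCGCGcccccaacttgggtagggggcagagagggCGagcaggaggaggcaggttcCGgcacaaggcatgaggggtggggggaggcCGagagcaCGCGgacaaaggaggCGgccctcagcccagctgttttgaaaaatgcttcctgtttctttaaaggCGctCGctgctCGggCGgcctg

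Adarb1 (chr10:77418274-77418523, minus strand), an RNA-editing adenosine deaminase, and Fam53a (chr5:33629636-33629885, minus strand) had a peak in the control list only. Their printed stretches hold 40 and 37 CpG.
Adarb1: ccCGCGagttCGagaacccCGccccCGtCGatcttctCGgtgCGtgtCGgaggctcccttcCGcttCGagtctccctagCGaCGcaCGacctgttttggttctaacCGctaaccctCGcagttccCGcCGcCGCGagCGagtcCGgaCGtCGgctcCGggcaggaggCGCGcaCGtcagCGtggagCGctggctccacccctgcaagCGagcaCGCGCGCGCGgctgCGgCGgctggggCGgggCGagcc
Fam53a: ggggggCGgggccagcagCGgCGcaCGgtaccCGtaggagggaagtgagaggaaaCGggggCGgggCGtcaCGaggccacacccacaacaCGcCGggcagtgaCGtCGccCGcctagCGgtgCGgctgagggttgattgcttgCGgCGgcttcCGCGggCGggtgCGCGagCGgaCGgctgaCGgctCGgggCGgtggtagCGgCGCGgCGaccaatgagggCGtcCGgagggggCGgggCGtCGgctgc

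Cited2 (chr10:17722978-17723227, plus strand) encodes a protein that binds the acetyltransferases CBP and p300. With the same genes left out, it had the highest peak of the set found in the knockdown list only. With it are the 3 immediate early genes of that set with a score of 100 or more: Klf4 (chr4:55532476-55532725, minus strand), Dusp1 (chr17:26508473-26508722, minus strand) and Jun (chr4:95052223-95052472, minus strand). Immediate early genes respond to serum and stress within minutes. Dusp1 was 1 of 4 genes of the set of 164 (2.44%) whose 300 bases held the cyclic AMP response element TGACGTCA, against 3.79% of promoters with H3K4me3 and no MTA1 peak and 2.40% of all. The AP-1 site TGANTCA, on either strand, was in 4 of the 164 (2.44%) and in 10 of the 163 of the control list only (6.13%), against 4.42% with H3K4me3 alone and 7.38% of all.
Cited2: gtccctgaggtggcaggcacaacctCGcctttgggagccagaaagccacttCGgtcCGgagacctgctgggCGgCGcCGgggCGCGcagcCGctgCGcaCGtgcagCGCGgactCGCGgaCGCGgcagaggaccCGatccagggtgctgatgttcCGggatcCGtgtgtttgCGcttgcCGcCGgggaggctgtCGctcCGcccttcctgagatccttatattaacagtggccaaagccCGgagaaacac
Klf4: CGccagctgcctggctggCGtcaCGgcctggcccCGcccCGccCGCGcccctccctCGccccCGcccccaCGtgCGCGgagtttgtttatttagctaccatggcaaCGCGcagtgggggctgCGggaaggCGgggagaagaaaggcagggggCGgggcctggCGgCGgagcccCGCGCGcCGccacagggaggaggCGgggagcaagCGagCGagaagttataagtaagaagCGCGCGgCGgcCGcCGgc
Dusp1: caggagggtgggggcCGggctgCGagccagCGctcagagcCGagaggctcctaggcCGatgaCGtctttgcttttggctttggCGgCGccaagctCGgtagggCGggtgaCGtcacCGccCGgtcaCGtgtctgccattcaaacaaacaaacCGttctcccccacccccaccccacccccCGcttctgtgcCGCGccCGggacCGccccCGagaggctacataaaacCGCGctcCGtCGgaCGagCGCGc
Jun: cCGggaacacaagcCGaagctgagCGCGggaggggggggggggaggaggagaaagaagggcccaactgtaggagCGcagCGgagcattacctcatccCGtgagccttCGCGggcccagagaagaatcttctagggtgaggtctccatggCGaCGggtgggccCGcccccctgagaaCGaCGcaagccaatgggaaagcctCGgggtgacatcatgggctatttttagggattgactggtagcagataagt

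The 2 lists differed in form before any comparison of sites. The median width was 150 bp (58 to 6780) in the control list and 861.5 bp (366 to 6870) in the knockdown list, which covered 342.6 and 873.1 kb. A wide peak meets other features more easily, so main overlaps are also given for the 200 bp at the centre of each peak. Scores from both lists were low for most peaks, with medians of 57.1 and 61.2 above a lowest value of about 50. The control list held 1512, 131 and 60 peaks in the 3 score classes and the knockdown list 803, 81 and 20. Just inside the limit of 200 the control scores were 200.75, 202.01 and 202.6 and just outside it 199.0, 198.56 and 197.14, and the knockdown scores were 200.32, 206.96 and 214.49 against 197.31, 187.29 and 184.88. At the limit of 100 the control scores were 100.08, 100.85 and 101.04 against 99.38, 99.2 and 99.08, and the knockdown scores 100.67, 101.37 and 102.67 against 99.51, 99.06 and 98.44.

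High-scoring MTA1 peaks were found in both lists more often than low-scoring ones. Of the knockdown peaks with a score of 200 or more all 20 were overlapped by a control peak (exact 95% binomial interval 83.2% to 100%), of those at 100 to 200 63.0% (51.5 to 73.4) and of those under 100 14.8% (12.4 to 17.5). The control list followed the same order, with 83.3% (71.5 to 91.7), 50.4% (41.5 to 59.2) and 10.5% (9.01 to 12.2). Width also differed by class, with medians of 146, 292 and 487.5 bp in the control list and 837, 1182 and 1412 bp in the knockdown list. With both lists at 200 bp around the centre the shares were 15 of 20 (50.9 to 91.3%), 46.9% (35.7 to 58.3) and 11.7% (9.56 to 14.1) in the knockdown list and 46.7% (33.7 to 60), 29.0% (21.4 to 37.6) and 5.82% (4.69 to 7.12) in the control list. The lowest class then stood apart in both lists, while the intervals of the upper 2 classes overlapped. These intervals cover counting over peaks, not the spread between libraries. Widening the search to 500 bp changed the totals little, from 275 to 299 control peaks and from 190 to 199 knockdown peaks.

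**Figure D1:**
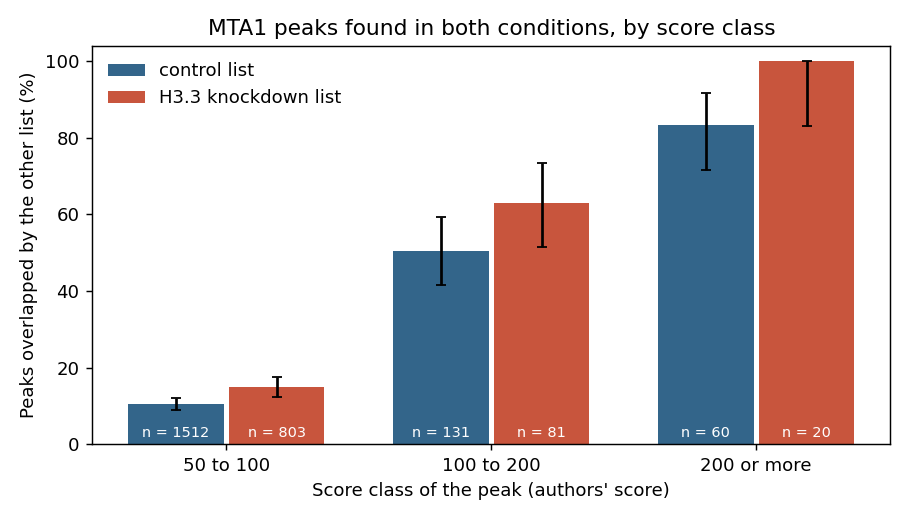
Share of MTA1 peaks overlapped by a peak of the other list (y axis, percent) by score class of the peak (x axis), for the control and the H3.3 knockdown list; bars are shares, lines exact 95% intervals and n the number of peaks. The share rises from 10.5% and 14.8% in the lowest class to 83.3% and 100% in the highest.

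Away from sites that were high in every library, the highest shared peaks with a histone mark lay at Zfp800, Hivep3 and Pmp22. Scores depend on the depth of a library, which is unknown here, so control and knockdown scores are given side by side and their levels are not compared. The zinc finger gene Zfp800 had a control score of 891.17 and a knockdown score of 166.59 (control peak chr6:28210713-28211912, at the end of its locus). Hivep3, a zinc finger transcription factor gene, had 850.05 and 215.85 at a site inside the locus (chr4:119705325-119706041). Pmp22, which encodes a myelin protein first found as a growth arrest gene, had 738.09 and 52.76 (chr11:62945045-62946584). This control peak ranked 9 in its list, while its knockdown counterpart lay near the lowest score, and another knockdown peak in the Pmp22 locus had 61.32. At Foxc2, a forkhead factor gene of mesenchyme and vessels, the scores were 295.78 and 265.94 (control peak chr8:123641136-123641617). The next genes were chosen after their values were seen. Control and knockdown scores were 487.69 and 77.59 at Sema3f, a secreted guidance cue, 410.1 and 139.54 at Fzd2, a Wnt receptor, and 338.83 and 233.66 at Pdgfa, a growth factor ligand. They were 63.37 and 233.87 at Efnb2, an ephrin ligand of Eph receptors, and 72.24 and 249.39 at the zinc finger gene Zfat. All of the sites named here overlapped H3K4me3, and all but the one at Pmp22 also H3K9ac.

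Across the 190 shared knockdown peaks the highest overlapping control score was above the knockdown score in 121 and below it in 68, with 1 tie. Of the 42 pairs with a control score of 200 or more the medians were 355.5 and 145.6, and of the 20 with a knockdown score of 200 or more 365.0 and 249.9, with the control score higher in 14 and the knockdown score in 5. At a knockdown score of 100 to 200 the control score was higher in 26 of 51. This order is no result, because a split on 1 list's score favours that list, and because 56 of the 190 knockdown peaks met 2 or more control peaks and the highest was taken.

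**Figure D2:**
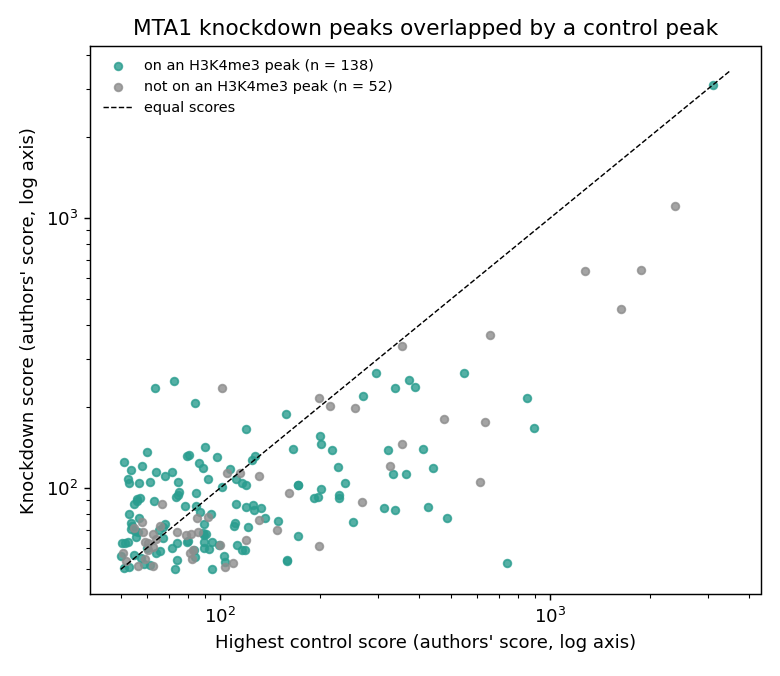
Knockdown score (y axis) against the highest overlapping control score (x axis) of the 190 shared knockdown peaks, both on log axes; each point is 1 peak, coloured by overlap with an H3K4me3 peak, and the dashed line marks equal scores. Points lie on both sides of the line, 121 below it, 68 above it and 1 on it at 3100.

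The highest scores of both lists were at sites that gave high signal in every library of the level table. The ribosomal RNA locus Rn45s (chr17:39979937-39983894 in the control list) had 3100 in both lists, and a site 1034557 bp from the nearest gene, Lrrc4c, had 2392.33 and 1103.4 (chr2:98506379-98507493). At the start of chromosome 9 (chr9:2999998-3038247) lay 50 control peaks with scores of up to 631.74. Sites within 10 kb of a region with a level of at least 3, as log2(RPKM + 1), in all 11 libraries of that table held 71 control peaks and 15 knockdown peaks. Of these 62 and 14 had none of the 3 histone marks, and 23 and 8 had a score of 200 or more. With these peaks left out, 31 of 37 control peaks with a score of 200 or more (83.8%, 68.0 to 93.8) and 12 of 12 knockdown peaks were still shared. A further site with high scores, but not high in all 11 libraries of that table, lay in Cacng4 (chr11:107645380-107645963). This calcium channel and glutamate receptor auxiliary subunit gene had scores of 1638.97 and 458.07 and no histone mark peak at the site. Levels of its region were 2.11 for MTA1 and 3.93 for RBBP4, above the medians of 0.99 and 1.34 over all listed regions. For H3K4me3 the level was 0.37, and Cacng4 RNA was listed at 0 in both controls.

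Of the 75 control peaks of 100 or more without a knockdown peak, 39 (52.0%, 40.2 to 63.7) lay within 1 kb of a locus end. In the class of 200 or more there were 10 such peaks, 4 of them in the chromosome 9 cluster and 1 intergenic (score 247.2). The others lay at Slit2, the ligand of Robo guidance receptors (346.03, chr5:48377316-48377764), at Adarb1 (233.46, chr10:76880440-76880989), beside Pmp22 (226.33, chr11:62944268-62944871), at Fam53a (225.1, chr5:33971601-33972114) and at Lrrfip1 (218.77, chr1:92895115-92895642). All 5 overlapped H3K4me3, and Adarb1, Fam53a and Lrrfip1 also H3K27ac. Each of the 5 had an RBBP4 peak in control and in knockdown cells, where the MTA1 knockdown list held none. The peak beside Pmp22 lay close to the shared site of that gene, whose knockdown peak was at chr11:62945513-62946414. Among the 65 control-only peaks at 100 to 200, and chosen after their values were seen, were the receptor genes Fgfr2 (187.24), Fgfr1 (150.11), Acvr1b (167.49, with no histone mark) and Met (105.84). The same class held the Polycomb gene Cbx2 (149.2), the transcriptional cofactor gene Eya1 (136.12), the corepressor gene Runx1t1 (154.5) and the activin antagonist gene Fst (101.47).

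Of the 30 knockdown peaks of 100 or more without a control peak, 23 (76.7%, 57.7 to 90.1) lay within 1 kb of a locus end. The 10 highest ran from 184.88 to 125.46. The highest, at the predicted genes 2610005L07Rik and 6820431F20Rik (chr8:20019649-20020860), was followed by Cited2 (158.79, chr10:17441849-17443833) and Tmprss6, a membrane serine protease gene (150.83, chr15:78279943-78281654). Then came Ccdc88a, an actin-binding protein gene (143.51), Sh3rf3 (142.64), the kinase gene Pim3 (141.82) and Prickle1, a planar polarity gene (139.28). An intergenic site (132.64) and the gene models 1600020E01Rik (128.91) and 2610002J02Rik (125.46) completed the 10. Further down were Klf4, a zinc finger transcription factor gene (116.8, chr4:55542804-55544911), Dusp1, a MAP kinase phosphatase gene (107.61, chr17:26644449-26645593), and Jun, an AP-1 subunit gene (107.42, chr4:94716363-94718452). All 3 had H3K4me3, H3K9ac and H3K27ac peaks in unmodified cells and an RBBP4 peak in both conditions.

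The strong peaks of only 1 list differed in the acetylation that these sites had in unmodified cells. Among peaks of 100 or more, H3K27ac lay at the centre of 14 of 75 control-only peaks (18.7%, 10.6 to 29.3) and of 17 of 30 knockdown-only peaks (56.7%, 37.4 to 74.5). Shared peaks of this score range stood with the control-only peaks, at 20.7% (13.7 to 29.2) in the control and 22.5% (13.5 to 34.0) in the knockdown list. Restricted to peaks on H3K4me3, the shares were 26.5% of 49 (14.95 to 41.1) for control-only and 63.0% of 27 (42.4 to 80.6) for knockdown-only peaks. Of all 32099 H3K4me3 peaks 17.3% had H3K27ac at their centre, and of the widest 3 in 10 37.8%. Without the sites that were high in all 11 libraries the first pair of shares was 21.3% (11.9 to 33.7) and 56.7%. In the class of 50 to 100, also without these sites, it was 9.72% of 1337 control-only and 24.45% of 683 knockdown-only peaks. Shared peaks of that class had 29.5% of 149 in the control and 29.7% of 118 in the knockdown list. There the knockdown-only peaks thus did not stand above the shared ones. Over all scores the gap between the lists on H3K4me3 was smaller at the centre, with 33.5% of 615 peaks in the control list (29.8 to 37.4) and 41.6% of 543 in the knockdown list (37.4 to 45.9). With whole peaks the last pair was 33.01% and 60.2%. Width moved with this result, with medians of 347 bp for control-only and 1238 bp for knockdown-only peaks of 100 or more, and its part was not tested beyond the use of the centre.

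**Figure D3:**
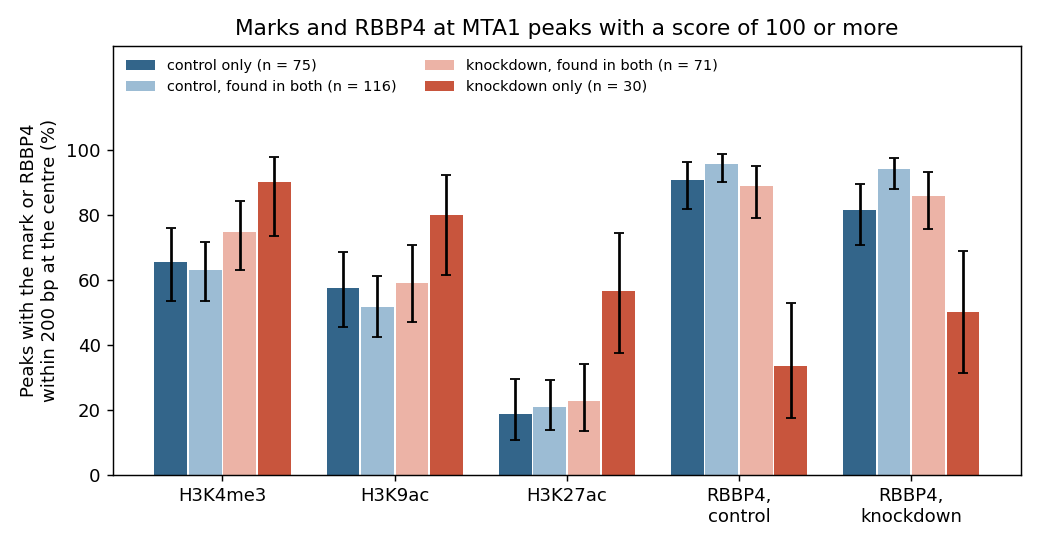
Share of MTA1 peaks with a score of 100 or more (y axis, percent) whose central 200 bp overlapped a peak of H3K4me3, H3K9ac or H3K27ac in unmodified cells or of RBBP4 in control or knockdown cells (x axis); bars are shares and lines exact 95% intervals for 75 control-only, 116 shared control, 71 shared knockdown and 30 knockdown-only peaks. The knockdown-only peaks have the highest H3K27ac share, 56.7%, and the lowest RBBP4 shares, 33.3% and 50.0%.

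RBBP4 followed the MTA1 score and the shared sites. An overlap with RBBP4 control peaks was seen for 32.8% (30.6 to 35.1) of control MTA1 peaks, and for 93.7% (89.3 to 96.7) of those with a score of 100 or more. Among control MTA1 peaks found again in the knockdown list the share was 83.6% (78.7 to 87.8) against 23.0% (20.9 to 25.3) of those not found. In the knockdown list 32.4% (29.4 to 35.6) of all MTA1 peaks had an RBBP4 knockdown peak, 77.9% (71.3 to 83.6) of the shared and 20.3% (17.4 to 23.4) of the others. At the peak centre these pairs were 83.6% and 23.2% in the control list and 72.6% and 14.7% in the knockdown list, and for scores of 100 or more the shares were 93.7% and 75.2% (65.7 to 83.3). Of the 75 control-only MTA1 peaks of 100 or more, 62 (82.7%, 72.2 to 90.4) still had an RBBP4 peak in knockdown cells. Whether the MTA1 and RBBP4 lists were called against the same input is not given in the sources used here.

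Most MTA1 peaks of the control list carried none of the 3 marks, and most of the knockdown list did carry one. Over whole peaks, which were wider in the knockdown list, no mark peak at all was found for 63.3% of the control and 37.9% of the knockdown list. These shares came mainly from low scores. Without sites high in all 11 libraries of the level table, 66.55% of control peaks at 50 to 100 had no mark, against 18.49% from a score of 100. In the knockdown list it was 39.95% at 50 to 100 and 9.21% at 100 to 200. At the peak centre, H3K4me3 was found for 36.1% (33.8 to 38.5) of the control list and 59.2% (55.9 to 62.4) of the knockdown list. Sharing went with the mark: 70.5% of the control peaks found again had H3K4me3 against 29.5% of the others, and in the knockdown list 72.1% against 55.7%. Regions with a tagged H3.3 peak held 66.5% of the control peaks found again and 27.8% of the others. In the knockdown list these shares were 72.6% and 61.1%. Tagged H3.3 was mapped without depletion, so these values do not show where H3.3 remained in knockdown cells. Gene loci held 53.2% of the control and 63.3% of the knockdown list, and 26.3% and 44.7% lay within 1 kb of a locus end. The median level in the listed regions that held 755 of the control peaks was 3.87 for H3K4me3, 2.53 for RBBP4 and 1.29 for MTA1, and in those that held 730 of the knockdown peaks 3.53, 2.43 and 1.40. Over all 82893 regions it was 0.60, 1.34 and 0.99, so of these 3 the MTA1 level differed least from the rest. Peaks of the unmodified MTA1 library covered part of the region at 7.05% of control and 16.8% of knockdown peaks.

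The H3K4me3 peaks that overlapped MTA1 peaks were wider than the others. H3K4me3 peaks with a control MTA1 peak had a median width of 3016 bp and those with a knockdown peak of 2959 bp, against 1218 bp for the 31220 without either. From the narrowest to the widest of 10 parts the share with a control peak went from 0.311% (0.149 to 0.571) to 6.36% (5.54 to 7.26), and with a knockdown peak from 0.529% (0.308 to 0.846) to 6.86% (6.01 to 7.79). With 1 library per condition, and lists of unequal length and peak width, the shares of the 2 lists are given side by side without a comparison. Wide peaks offer more bases to overlap, and the part this plays was not tested.

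**Figure D4:**
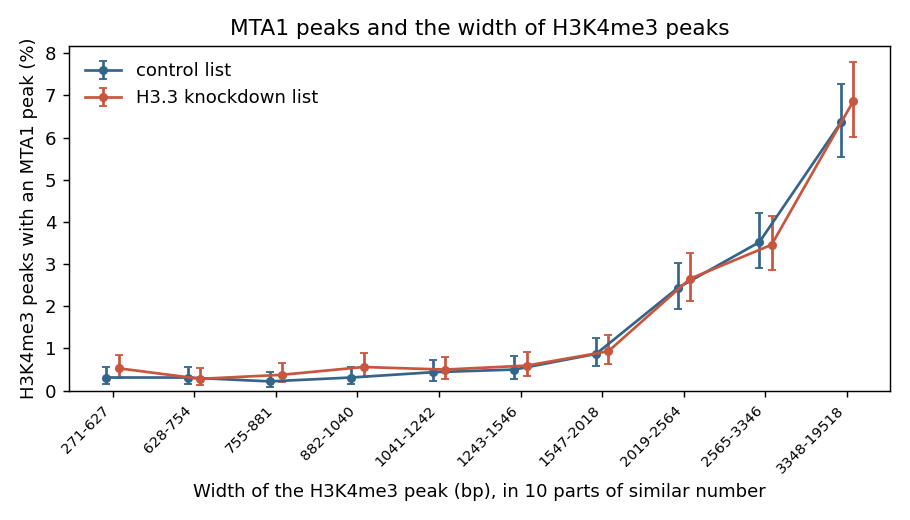
Share of H3K4me3 peaks that overlapped an MTA1 peak (y axis, percent) in 10 parts by width of the H3K4me3 peak (x axis, bp), for the control and the knockdown list; points are shares and lines exact 95% intervals. Both curves stay under 1% up to a width of 2018 bp and reach 6.36% and 6.86% in the widest part.

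RNA of the 2 H3.3 genes was lower in every knockdown clone, with a wide spread. Control levels of H3f3a were 128.3 and 143.5 FPKM (fragments per kilobase of transcript, scaled to library size), and knockdown levels were 71.8, 35.6 and 5.04 (−2.44 on the log2 scale, SE 1.04; limma gave an adjusted p of 0.516). For H3f3b they were 249.4 and 237.1, then 144.4, 104.3 and 51.7 (−1.39 on the log2 scale, SE 0.45; limma gave an adjusted p of 0.469). Neither passed the test, although the groups did not overlap. Mta1 itself had 64.3 and 71.1 against 51.9, 60.9 and 33.4 (−0.51 on the log2 scale; limma gave an adjusted p of 0.561). The labels do not tie these clones to the ChIP cells, so how much H3.3 or MTA1 the ChIP cells held is not known. In these bulk samples fewer cells of a type and less RNA per cell cannot be told apart. Fibroblast markers summed to 6546 to 9727 FPKM per clone, against 26.6 to 55.8 for skeletal muscle markers, 6.18 to 17.4 for haematopoietic, 1.34 to 10.8 for endothelial, 0.703 to 6.51 for epithelial and 0.448 to 1.55 for neural markers.

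RNA of genes with an MTA1 peak was compared between the clones to see whether these genes stood apart. Of 23951 genes 765 (3.19%) had a control peak in their locus and 588 (2.46%) a knockdown peak. With limma on log2(FPKM + 1) over 11728 genes, 4 genes (0.0341%) passed an adjusted p of 0.05, and 8 to 30 did when any 1 of the 5 clones was left out (30 and 28 without control clone 1 or 2, 18, 14 and 8 without knockdown clone 1, 2 or 3). None of the 566 tested genes with a control peak passed, with 14 higher (2.47%) and 31 lower (5.48%) at an unadjusted p under 0.05. Of the 472 with a knockdown peak 1 passed, with 9 higher (1.91%) and 41 lower (8.69%) at that p. Over all tested genes these shares were 3.50% and 6.31%. That gene was the microRNA gene Mir6993, whose knockdown peak scored 51.42, near the lowest value of the list. It had 317.3 and 159.1 FPKM in the controls and was listed at 0 in all knockdown clones (adjusted p of 0.00355 by limma). The median log2 difference was −0.12 with a control peak and −0.15 with a knockdown peak, against −0.10 over all tested genes. All 3 knockdown clones were above both controls in 52 (9.19%) and 51 (10.8%) of these genes, against 11.4% of all, and below both in 136 (24.0%) and 105 (22.2%), against 21.2% of all. These shares lie near those of all genes. The median control FPKM was 11.3 for 36 control-only and 19.4 for 30 knockdown-only genes with a peak of 100 or more, against 13.4 over all. The p-values measure the spread between these clones only.

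MTA1 peaks lay at up to 5 members of each gene group examined, beside 3.19% of all genes in the control and 2.46% in the knockdown list. These shares include genes with little or no RNA. Of all genes 49% were tested, against 30 of 30 immediate early, 27 of 29 matrix and 31 of 31 cell cycle genes. Of the 11728 tested genes 566 had a control and 472 a knockdown peak. Of 30 immediate early and AP-1 genes, 1 (3.33%) had a control peak (Ctgf, a matricellular growth factor gene, score 105.07) and 5 (16.7%) had a knockdown peak, namely Jun (107.42), Dusp1 (107.61), Klf4 (116.8), the transcription factor gene Myc (57.31) and Ier3, an early response gene (54.73). Of 29 matrix genes 1 (3.45%) had a control and 4 (13.8%) a knockdown peak. The collagen IV gene Col4a1 was in both (63.78 and 64.54), and the collagen I genes Col1a1 (64.79) and Col1a2 (53.61) and the elastin gene Eln (53.11) were in the knockdown list only. Of 31 cell cycle and replication genes 3 (9.68%) had a control peak, the cyclin genes Ccnd1 (55.25) and Ccnd3 (53.96) and the inhibitor gene Cdkn1b (52.54), and none a knockdown peak. Among 15 NuRD subunit genes, 2 (13.3%) in each list, Rbbp4 had peaks in both lists (172.3 and 66.28), Mta3 a control peak (63.55) and Hdac2 a knockdown peak (51.39). Of 14 H3.3 genes and deposition factors, the remodeller gene Chd1 had a knockdown peak (54.71). Atf4, the transcription factor of the amino acid stress response, had a knockdown peak (89.49), as 1 of 20 genes of its list. Srebf1, a transcription factor gene of lipid synthesis, had a knockdown peak (63.22). Contractile genes had 1 of 19 in both lists (Tpm1, tropomyosin, 60.21 and 69.88). None of 25 canonical histone and 34 ribosomal protein genes had a peak. Most of these scores lie just above the lowest value, where only 10.5% and 14.8% of peaks were found in both lists.

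Of the tested members with a peak, none passed the limma test, with 4 of 20 at an unadjusted p under 0.05, which held for 9.81% of all tested genes. These 4 were Col1a2, Ccnd3, Ier3 and Atf4. Jun had 56.3 and 41.9 FPKM in the controls and 40.3, 41.6 and 52.8 in the knockdown clones, with overlapping groups. Klf4 had 21.0 and 25.4 against 27.4, 28.9 and 40.2, all above the controls (0.44 on the log2 scale, SE 0.24; limma gave an adjusted p of 0.555). Dusp1 ranged from 12.0 to 74.4 in the knockdown clones around controls of 28.1 and 26.5. The 3 immediate early genes with strong knockdown-only peaks thus had no common direction of RNA. Ctgf, with its control-only peak, had 480.6 and 144.7 against 9.45, 130.6 and 111.2 (−2.30 on the log2 scale, SE 1.25; limma gave an adjusted p of 0.552). Col1a2 had 667.7 and 776.4 against 1690, 1390 and 1109 (0.93 on the log2 scale; limma gave an adjusted p of 0.447), and Ccnd3 83.9 and 78.7 against 41.5, 40.5 and 38.7 (limma gave an adjusted p of 0.401). Ier3 had 49.7 and 70.7 against 18.0, 28.8 and 41.7 (−1.06 on the log2 scale; limma gave an adjusted p of 0.493), and Atf4 341.1 and 364.4 against 156.3, 261.8 and 204.3 (−0.79 on the log2 scale; limma gave an adjusted p of 0.485). For all 4 genes the groups did not overlap, but they were picked by p in the same clones, so this is no further result. Of all tested genes 11.4% had every knockdown clone above both controls and 21.2% below both. Within the groups, knockdown values were higher for 9 and lower for 21 of 30 immediate early genes, higher for 11 and lower for 16 of 27 matrix genes, and lower for 30 of 31 cell cycle genes, with 0 calls by limma in each, 1, 6 and 3 genes at an unadjusted p under 0.05, and medians of −0.22, −0.13 and −0.81 against −0.10 over all genes. Of all tested genes 59.9% were lower and 9.81% had an unadjusted p under 0.05.

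**Figure D5:**
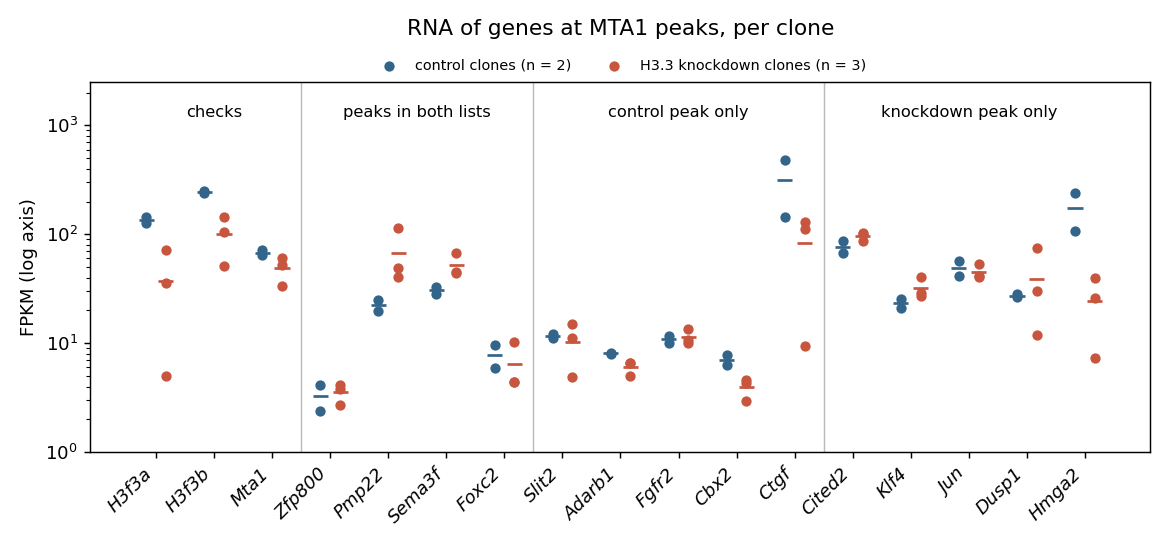
FPKM per clone on a log axis (y axis) of 17 genes (x axis): the H3.3 genes and Mta1, then genes with MTA1 peaks in both lists, in the control list only and in the knockdown list only; points are clones and short lines group means. Knockdown points of H3f3a and H3f3b lie below both controls, those of Pmp22 and Klf4 above them, and Jun, Slit2 and Fgfr2 overlap.

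No gene at the strongest peaks passed the limma test on RNA either, whatever the separation of its clones. Only 4 of the 11728 tested genes (0.0341%) passed it, so this does not set the genes at strong peaks apart. Every knockdown clone lay above both controls for 11.4% of all tested genes and below both for 21.2%. Pmp22, with peak scores of 738.09 and 52.76, had 19.6 and 24.95 FPKM against 113.1, 49.5 and 40.5, above both controls in every clone (1.43 on the log2 scale, SE 0.47; limma gave an adjusted p of 0.470). Sema3f had 28.5 and 33.1 against 66.7, 44.8 and 44.0, also apart (0.71 on the log2 scale; limma gave an adjusted p of 0.491). Zfp800 had 4.11 and 2.38 against 2.73, 3.77 and 4.11. The groups overlapped there, as they did at Foxc2 with 9.61 and 5.98 against 4.43, 4.41 and 10.4. Among the control-only genes Slit2 had 12.2 and 11.2 against 4.90, 14.9 and 11.2, and Fgfr2 10.1 and 11.6 against 10.8, 10.1 and 13.6, both overlapping. Adarb1 had 8.03 and 8.08 against 4.98, 6.59 and 6.60, below both controls in every clone (−0.37 on the log2 scale; limma gave an adjusted p of 0.544). Cbx2 was also below, with 7.80 and 6.26 against 4.31, 4.56 and 2.92 (−0.71 on the log2 scale; limma gave an adjusted p of 0.469). Of the knockdown-only genes Cited2 had 86.3 and 67.6 against 87.4, 100.5 and 102.0, and Pim3 24.8 and 27.0 against 13.5, 13.5 and 19.9, the first above and the second below both controls in all clones. The architectural chromatin gene Hmga2, chosen after its values were seen and with a knockdown-only peak of 101.37, had 237.4 and 108.1 against 7.33, 39.5 and 25.8 (−2.95 on the log2 scale, SE 0.75; limma gave an adjusted p of 0.442).

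The expressed genes with an MTA1 peak and the 5 smallest p-values in each direction were also read out. On the higher side were the calcium channel gene Cacna1a (knockdown peak 94.12), with 3.50 and 2.91 FPKM against 12.0, 10.2 and 14.4 (1.64 on the log2 scale, SE 0.21; limma gave an adjusted p of 0.238), and the mitochondrial gene Apool (control peak 60.37; log2 difference 1.16). Fam13c (1.25), the splicing-related gene Rsrc1 (0.84) and 1700021F05Rik (0.83) followed on the log2 scale. On the lower side, after Mir6993, were the activin receptor gene Acvr2b with peaks in both lists (92.64 and 59.51), which had 5.26 and 5.74 against 1.68, 1.65 and 1.98 (−1.23 on the log2 scale, SE 0.19; limma gave an adjusted p of 0.307), and Ccnd3. The GATA cofactor gene Zfpm1 (control peak 57.29; log2 difference −0.99) and the focal adhesion gene Parvb (control peak 71.48; log2 difference −1.36) came next. Apart from Mir6993 none passed the test. All of these genes had their knockdown clones on 1 side of both controls. This follows from their choice by p-value in the same clones and is no further result. Over all tested genes 11.4% had every knockdown clone above both controls and 21.2% below both.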

How the data were processed

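Peak lists, level and coverage tables and FPKM tables were used as deposited. The tools named per the submitters' processing notes are MACS2, Bowtie, TopHat, Cuffdiff, Cufflinks and bedtools, with mouse build mm9 and no version or role. For duplicate handling, input subtraction and strand nothing is given in the sources used here. The authors' deposited lists give a score per peak, used to rank and class peaks within a list. The deposited level table is labelled RPKM per the file headers and holds log2 values, read as log2(RPKM + 1). The authors' coverage table gives the fraction of each region covered by peaks per library, and a region counted as holding a peak where this was above 0. The deposited RNA tables, 2 of control and 3 of knockdown clones, give FPKM, which was summed per symbol. Coordinates of peaks are mm9, 1-based. The sequential ChIP list and the inputs were not used here.

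Overlaps and exact (Clopper-Pearson) intervals at 95% were computed in Python 3.11.15 with pandas 2.3.3 and scipy 1.17.1. RNA was tested in R 4.3.3 with limma 3.58.1 (trend, two-sided) on log2(FPKM + 1) for the 11728 genes whose mean FPKM reached 1, with Benjamini-Hochberg adjustment over all of them and a threshold of 0.05, after a test on simulated data. A fold change on this scale understates the change of low genes. Named peaks were the 10 highest of each list, all control peaks of 200 or more without a knockdown peak, and the 10 highest knockdown peaks without a control peak. Named genes lay at those peaks, were list members with a peak, or had the 5 smallest p per direction among expressed genes with a peak; others are marked as chosen after their values were seen. Promoter sequences are from RefSeq (GRCm38.p6), and the peak at a start was placed with mm9 loci and the RefSeq strand. The members, lists and promoters were chosen with earlier results of these data known. Alternatives were another overlap rule, other score limits, equal list lengths, locus margins, FPKM filters, pseudocounts, quantile normalization, leaving out each clone and the clone number as a block. Leaving out sites high in all 11 libraries of the level table was added after seeing the data.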

Additional observations from a re-analysis of the deposited data

How the results depend on the processing

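The share of control peaks found in the knockdown list (16.1%) was 9.04% with the central 200 bp, 27.8% and 38.7% with scores of at least 60 or 100 in both lists, 26.1% with 904 peaks from each list and 14.3% without sites high in all 11 libraries of the level table. For knockdown peaks (21.0%) it was 4.09% when control peaks had to cover 50% of the peak, 16.3% with the central 200 bp, 26.8% and 48.5% from a score of 60 or 100, and 18.2% with equal numbers. From a score of 100, H3K4me3 was at 63.9% of control and 79.2% of knockdown peaks, and RBBP4 of the same condition at 93.7% and 82.2%. RBBP4 came to 30.3% of control peaks without the high sites, and to 11.2% of knockdown peaks with 50% covered and 26.9% at the centre. Gene loci held 62.6% and 74.9% of control and knockdown peaks with a margin of 5 kb, 40.6% and 51.8% with expressed genes only, and 62.8% and 74.3% from a score of 100. The median log2 difference with a control peak was −0.04 without a filter (all genes −0.01), −0.02 after quantile normalization and −0.18 from a score of 100, and with a knockdown peak −0.05 after quantile normalization. Quantile normalization moved the median of all genes from −0.098 to −0.006. Genes past the RNA test numbered 8 to 30 when 1 clone was left out, where a lone control is assumed to vary like the other clones. With the clone number as a block 0 passed; the numbers only name the clones, and same-numbered clones deviated with r of −0.25 and −0.10, so they were not taken as pairs. No median changed sign, but without control clone 1 the median with a control peak was −0.08 against −0.09 over all genes. The unknown depth of the ChIP libraries and the single library per condition limit every difference between the lists.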

Other observations

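MTA1 peaks were spread unevenly over chromosomes. Chromosome 11 held 9.69% of control and 16.5% of knockdown MTA1 peaks, against 7.24% of H3K4me3 and 10.8% of H3K27ac peaks, and chromosome 15 held 5.81% and 9.29%, against 4.66% and 6.80%. Chromosome 3 held 4.64% of control and 1.77% of knockdown peaks, against 6.21% of H3K4me3 and 4.84% of H3K27ac peaks. These chromosomes were chosen after their values were seen. For RBBP4 the shares on chromosome 11 were 8.73% in control and 11.0% in knockdown cells.

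Some control peaks lay in runs of 4 or more. Sfi1, a centrosome gene on chromosome 11, held 11 control peaks with scores of up to 156.15, Bahcc1 held 7 with scores of up to 108.72, and Pdgfa held 5. The runs of the knockdown list were those of chromosome 2 and the start of chromosome 9. Knockdown peaks were wider, and 1 of them overlapped 4 control peaks at Pdgfa and another overlapped 10 at the start of chromosome 9. The part of peak width in the number of runs was not tested.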
